A study of Mus musculus with 6 samples.

Results

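The genes described here are the semaphorins and their receptors, the plexins and neuropilins, in mouse Müllerian duct mesenchyme. They were picked by gene symbol, with earlier results of these data known. Semaphorins of classes 3 to 7, plexins A to D and both neuropilins gave 31 of the 37991 deposited gene identifiers. They comprise 20 ligands (7 of class 3, 6 of class 4, 2 of class 5, 4 of class 6 and 1 of class 7), 9 plexins and 2 neuropilins. Each was found once. RNA was sequenced from 3 male and 3 female libraries of cells sorted for YFP at embryonic day 14.5. Embryos of both sexes had the same genotype, Amhr2Cre/+ with R26R YFP/+, on a mixed background of C57BL/6J and 129/SvEv. Cre from the Amhr2 locus switches on the YFP reporter, so sorted cells express Amhr2 or descend from cells that did, and every embryo carried this Cre allele. Cells of 2 to 7 embryos were pooled for a library, and 100 ng or more of total RNA went into it. The title of the study places osterix downstream of anti-Müllerian hormone (AMH) in duct regression, a process of males, and the comparison is of male with female mesenchyme.

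Semaphorins are secreted or membrane-bound guidance proteins. Class 3 members are secreted and mostly bind a neuropilin, which holds the ligand while a plexin of the A group or plexin D1 carries the signal. Most semaphorins of classes 4 to 7 are anchored in the membrane and bind plexins directly. The cytoplasmic part of a plexin acts on small GTPases and so on adhesion and the actin cytoskeleton. These genes are best known from axons and blood vessels, and many are also used by mesenchyme and epithelium during organ formation.

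Libraries held 22511872 to 24749859 counts in genes. Levels are given as CPM, which are counts divided by the library size times its TMM (trimmed mean of M values) factor, and per kb of the longest annotated transcript where genes are compared with each other. The 7 markers of the labelled tissue, Amhr2, Wnt5a, Hoxa10, Hoxa11, Pdgfra, Col1a1 and Vim, were present in every library and summed to 4758 to 4823 CPM in male and 2999 to 4385 CPM in female libraries. They did not all lie the same way, and none passed an adjusted p of 0.05 between the sexes (edgeR). Amhr2, Hoxa10 and Hoxa11 averaged 339, 103 and 23.8 CPM in male and 530, 232 and 53.2 CPM in female libraries, while the other 4 had higher means in male. With the offset described further on these 3 were lower and Pdgfra higher past that threshold, where 5.94% of all tested genes passed. Both replicate 1 libraries stood apart, with 18.2% (male) and 17.5% (female) of uniquely placed counts outside annotated genes, against 3.53% to 8.65% in the other libraries. Nothing in the labels says whether libraries of the 2 sexes with the same number shared a day or a batch. The labels call the replicates biological and do not say which embryos went into which pool. Fewer cells of a type and less RNA per cell cannot be told apart in such libraries.

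Of the 31 genes, 28 reached 1 CPM in every library, and Sema3e, Sema6b and Plxnb3 did not. Plxnb2, a receptor of class 4 semaphorins, had the highest mean level per length of all 31, at 115 ± 68.7 CPM per kb in male and 128 ± 59.1 CPM per kb in female libraries (SD, n = 3 each). Among the ligands Sema5a, a transmembrane semaphorin with thrombospondin repeats, had the highest mean, at 43.1 ± 30.4 CPM per kb in male and 54.5 ± 34.3 CPM per kb in female libraries. Sema3f, Sema4c and Nrp1 followed, with means over the 6 libraries of 34.8, 28.6 and 24.2 CPM per kb. The ranges of Sema5a, Sema3f, Sema4c and Nrp1 overlapped, so their order is not fixed by these libraries. In both replicate 1 libraries Sema5a was above Plxnb2, and in the other 4 Plxnb2 was the highest. At the low end stood Sema3e at 0.0967 ± 0.0807 CPM per kb in male and 0.161 ± 0.114 CPM per kb in female libraries, and Nrp2, the preferred neuropilin of Sema3f, at 0.432 ± 0.0399 CPM per kb in male and 0.531 ± 0.150 CPM per kb in female libraries. Nrp1 thus stood above Nrp2 in all 6 libraries.

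Summed over members, the ligands reached 190.9 ± 24.8 CPM per kb in male and 227 ± 26.05 CPM per kb in female libraries, and the receptors 202 ± 65.2 CPM per kb in male and 230.1 ± 48.5 CPM per kb in female libraries. In both replicate 1 libraries the ligand sum was above the receptor sum, at 217 against 148 CPM per kb in male and 257 against 177 CPM per kb in female. In the other 4 libraries it was below, at 188 against 274 and 168 against 184 CPM per kb in male replicates 2 and 3 and at 210.4 against 272 and 213 against 241 CPM per kb in female replicates 2 and 3. The mean receptor sums were above the mean ligand sums with either transcript length, but the size of the gap changed with the length chosen. With the median annotated transcript the means were 1572 against 520.4 CPM per kb in male and 1782 against 679.6 CPM per kb in female libraries. By class, the 7 class 3 ligands summed to 47.8, 52.7 and 43.7 CPM per kb in male libraries and 69.96, 72.5 and 66.96 CPM per kb in female libraries. These sums did not overlap between the sexes and varied little within each, although most of the single genes in them spread widely. Sema3f was the highest of the 7 on this scale in the mean of each sex. The class sums are a description with no test. Class 4 summed to 54.8 ± 14.6 CPM per kb in male and 52.2 ± 12.3 CPM per kb in female libraries, and class 6 to 35.3 ± 7.29 CPM per kb in male and 29.2 ± 6.34 CPM per kb in female libraries. Plexins A summed to 42.9 ± 7.66 CPM per kb in male and 43.9 ± 2.26 CPM per kb in female libraries, and plexins B to 130.3 ± 72.3 CPM per kb in male and 151 ± 62.8 CPM per kb in female libraries. All of these sums overlapped between the sexes.

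Plxnb2 made up 33.7% to 68.1% of the receptor sum and Sema5a 10.2% to 36.0% of the ligand sum, depending on the library.

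**Figure D1:**
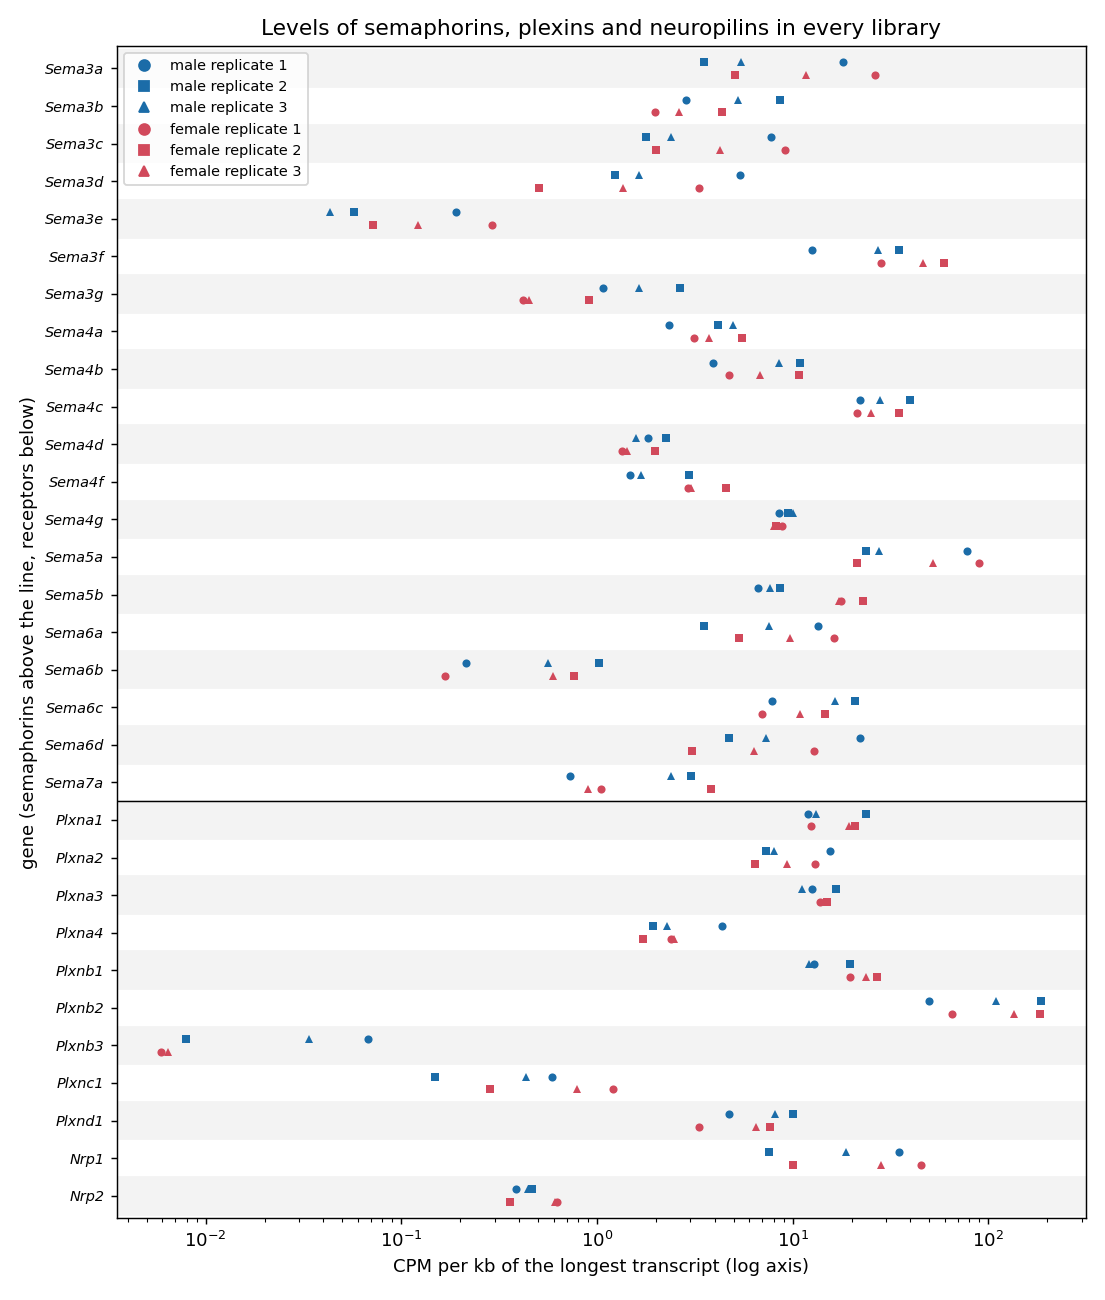
Level of each gene in every library, in CPM per kb of the longest transcript on a log axis, with male libraries in blue above female libraries in red and a marker shape per replicate; the female replicate 2 library held no count of Plxnb3 and has no point there. Plxnb2 and Sema5a are at the right of their groups, and Sema5b and Sema3g are the tested genes whose male and female points do not overlap.

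No ligand or receptor passed the threshold between the sexes. Of the 30 with enough counts, 0 were higher in male and 0 were lower (edgeR quasi-likelihood test, Benjamini-Hochberg adjusted p threshold 0.05 over 15227 genes), while 1.23% of all tested genes passed, 0.841% higher and 0.387% lower. Plxnb3 had too few counts to be tested. At an unadjusted p under 0.05 there were 2, Sema3g higher and Sema5b lower in male, against 9.18% of all tested genes (4.68% higher and 4.51% lower). DESeq2 called 1 gene, Sema5b, lower and 0 higher, where it called 2.15% of all genes lower and 2.92% higher, 5.06% in all. With limma-voom 0 were higher and 0 lower, with 0.972% and 0.453% of all genes called, 1.43% in all. Sema3g and Sema5b were also the only tested members without overlap between the sexes, 1 with male above and 1 with male below, against 6.47% and 7.27% of all tested genes, 13.7% in all. The ligands had 11 positive and 9 negative log2 fold changes (male over female) with a median of 0.08, the receptors 3 positive and 7 negative with a median of −0.13, and all tested genes had a median of −0.0060. This split of ligands and receptors does not hold with the offset for GC content and transcript length described further on, where the ligands had 8 positive and 12 negative values, a median of −0.056, and the receptors a median of −0.14. A p that misses the threshold does not show equal levels: the SE reached 0.83 on the log2 scale for Sema3d.

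Sema5b (ENSMUSG00000052133, chromosome 16) was the ligand with the smallest p. Its product, like that of Sema5a, is a transmembrane semaphorin with thrombospondin repeats and is known from repulsion of retinal neurites in the mouse. It had 30.8, 39.8 and 35.7 CPM in male replicates 1 to 3, against 81.6, 106 and 80.6 CPM in female replicates 1 to 3. All male libraries lay below all female libraries, and the spread within each sex was small. The log2 fold change was −1.34 (SE 0.31, edgeR adjusted p = 0.121), and DESeq2 gave −1.30 (SE 0.35, adjusted p = 0.00548). The difference was of like size within the replicate 1 pair, at −1.41, and between the other 4 libraries, at −1.31. Its class 5 relative Sema5a had 844, 256 and 298 CPM in male libraries and 972, 232 and 565 CPM in female libraries. These ranges overlapped almost completely, and the log2 fold change was −0.34 (SE 0.69). Whether the class 5 genes differ from each other in their response was not tested.

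Sema3g (ENSMUSG00000021904, chromosome 14), whose secreted product is known from arterial endothelium in the mouse, lay the other way. It had 4.86, 12.1 and 7.42 CPM in male libraries, against 1.91, 4.13 and 2.04 CPM in female libraries. The lowest male library was above the highest female library. The log2 fold change was 1.59 (SE 0.52, edgeR adjusted p = 0.315), with 1.35 within the replicate 1 pair and 1.66 between the other 4 libraries. The 8 endothelial markers summed to 16.3 to 37.9 CPM in male and 17.5 to 31.5 CPM in female libraries, which overlap, and none of them was at 0 in all libraries. Of the 7 that were tested none passed (edgeR; with the offset described further on Esam was lower), 5 had positive and 2 negative log2 fold changes, and Pecam1 and Cdh5, which define endothelium, averaged 1.14 and 1.84 CPM in male and 1.499 and 1.46 CPM in female libraries. The part of endothelial RNA in the level of Sema3g was not tested.

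The stretches of DNA in front of Sema5b and Sema3g are shown because these were the tested genes whose male and female libraries did not overlap. Each is the 250 bases before the RefSeq gene start, on the build GRCm38.p6 and the + strand, at chr16:35541112-35541361 for Sema5b and chr14:31217623-31217872 for Sema3g, written 5′ to 3′. Capitals mark matches, on either strand, to 3 short motifs: the GC box GGGCGG bound by factors of the SP family to which osterix belongs, GGCGCC, a sequence bound by SMAD1 and SMAD5, and TAATTG, a core bound by MSX and DLX homeobox proteins.
Sema5b: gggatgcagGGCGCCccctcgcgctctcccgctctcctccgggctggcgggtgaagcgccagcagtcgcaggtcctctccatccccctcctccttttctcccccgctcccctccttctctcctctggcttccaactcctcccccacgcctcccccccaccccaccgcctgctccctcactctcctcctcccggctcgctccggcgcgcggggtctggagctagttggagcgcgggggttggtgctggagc
Sema3g: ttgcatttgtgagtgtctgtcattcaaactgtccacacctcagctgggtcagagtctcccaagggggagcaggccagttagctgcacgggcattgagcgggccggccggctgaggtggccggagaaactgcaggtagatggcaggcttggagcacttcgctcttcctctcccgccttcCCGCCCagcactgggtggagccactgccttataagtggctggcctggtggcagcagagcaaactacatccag
Sema5b had 1 match to GGCGCC and Sema3g 1 to the GC box. Over the 37 windows of the 26 members that the RefSeq table holds, 27 had a GC box, 6 GGCGCC and 1 (of Sema4d) TAATTG, while 32.7%, 9.59% and 7.17% of all 32851 windows of this length did. Several of the 37 windows belong to 1 gene, and Sema3b, Sema3f, Plxna1, Plxna4 and Sema6a were not matched. The Sema5b window was 72.0% G or C and the Sema3g window 60.4%. The G or C content of the member windows was not compared with that of all windows, so these shares give no trait of the members. A match is a description of the letters and not a binding site.

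Among the other class 3 ligands, some lay higher and some lower in male, and none passed. Sema3f, which repels axons through Nrp2 in the mouse, had 42.6, 118 and 92.7 CPM in male libraries and 96.2, 203 and 157 CPM in female libraries. Every male value was below the female value of the same replicate number, but 1 male library was above the lowest female library. The log2 fold change was −0.85 (SE 0.49, edgeR adjusted p = 0.848). Sema3a, the founding repellent ligand that binds Nrp1, had 107, 20.8 and 32.3 CPM in male libraries and 157, 29.99 and 69.7 CPM in female libraries. The highest replicate was 5.13-fold above the lowest in male and 5.23-fold in female, and the log2 fold change of −0.68 had an SE of 0.81. Sema3b, another secreted ligand of the neuropilins, had 9.79, 29.6 and 18.1 CPM in male libraries and 6.80, 14.9 and 9.00 CPM in female libraries. The sexes overlapped, and the log2 fold change was 0.90 (SE 0.52, edgeR adjusted p = 0.846). Sema3d had 33.8, 7.76 and 10.4 CPM in male libraries and 21.0, 3.20 and 8.60 CPM in female libraries. The sexes overlapped and replicate 1 was highest in both, and the log2 fold change was 0.66 (SE 0.83). Sema3c, needed for septation of the cardiac outflow tract in the mouse, ranged over 9.79 to 42.7 CPM in male and 11.01 to 50.2 CPM in female libraries. Sema3e, which binds Plxnd1 without a neuropilin, ranged over 0.295 to 1.30 CPM in male and 0.492 to 1.98 CPM in female libraries. Both overlapped between the sexes, at log2 fold changes of −0.37 (SE 0.76) for Sema3c and −0.73 (SE 0.77) for Sema3e.

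None of the membrane-bound ligands of classes 4, 6 and 7 passed (edgeR). Sema4f had 6.04, 12.1 and 6.87 CPM in male libraries and 11.9, 18.6 and 12.4 CPM in female libraries. The highest male library just passed the lowest female library, and the log2 fold change was −0.78 (SE 0.41, edgeR adjusted p = 0.776). Sema4c, a ligand of Plxnb2, had 86.5, 154 and 108 CPM in male libraries and 83.3, 136 and 98.5 CPM in female libraries. The sexes shared almost the same range. Sema6d, a ligand of Plxna1, had 142, 30.4 and 47.1 CPM in male libraries and 82.7, 19.6 and 41.1 CPM in female libraries, a log2 fold change of 0.61 (SE 0.74). Sema6c had 40.0, 106 and 84.3 CPM in male libraries and 35.4, 74.3 and 55.8 CPM in female libraries, a log2 fold change of 0.48 (SE 0.48). Both genes overlapped between the sexes. Sema7a, which is held by a lipid anchor and binds Plxnc1 and integrins, had 2.41, 9.99 and 7.88 CPM in male libraries and 3.45, 12.6 and 2.96 CPM in female libraries. It overlapped between the sexes as well. Sema4a, Sema4b, Sema4d, Sema4g, Sema6a and Sema6b had log2 fold changes from −0.34 to 0.26. By mean CPM, not divided by length, Sema6a was the highest of these and Sema6b the lowest. Sema6a had 24.3 to 92.6 CPM in male and 36.7 to 111 CPM in female libraries. Sema6b had 0.803 to 3.81 CPM in male and 0.625 to 2.85 CPM in female libraries. Per length, Sema4g was above Sema6a in the male mean (9.36 against 8.22 CPM per kb) and below it in the female mean (8.34 against 10.4 CPM per kb). Sema4b had 15.5 to 43.2 CPM in male and 18.7 to 42.7 CPM in female libraries, and was above Sema6a in replicate 2 of both sexes. Sema4a and Sema4d, both known from immune cells, had lower means than Sema4b. Sema4g averaged 42.6 ± 3.36 CPM in male and 38.0 ± 1.85 CPM in female libraries, a narrow spread that widened with the offset to an SD of 10.2 CPM in male and 12.9 CPM in female libraries.

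Among the tested receptors, Plxnb1 and Plxnc1 had the log2 fold changes farthest from 0. Plxnb1, the receptor of Sema4d, had 111, 170.0 and 105 CPM in male libraries and 169, 233 and 206 CPM in female libraries. Male replicate 2 was barely above female replicate 1, and the other male libraries were below all female libraries. The log2 fold change was −0.66 (SE 0.34, edgeR adjusted p = 0.764). Plxnc1, the receptor of Sema7a, had 4.28, 1.09 and 3.16 CPM in male libraries and 8.78, 2.07 and 5.80 CPM in female libraries. The sexes overlapped, and the log2 fold change was −0.96 (SE 0.69). Plxnb2 had 324, 1215 and 710.3 CPM in male libraries and 424, 1188 and 878 CPM in female libraries. The replicates of each sex spread far more than the sexes did, and the log2 fold change was −0.15 (SE 0.61). Plxnd1, the receptor of Sema3e, had 32.7, 69.0 and 56.1 CPM in male libraries and 23.0, 53.0 and 44.8 CPM in female libraries. Its sexes overlapped too, at a log2 fold change of 0.39 (SE 0.45). Plxna1 had 108, 215 and 119 CPM in male libraries and 112, 187 and 176 CPM in female libraries. It did not separate the sexes, and neither did the other plexins of the A group, with log2 fold changes of 0.094 (Plxna2), −0.11 (Plxna3, on the X chromosome) and 0.38 (Plxna4). Plxnb1 shares 257 exonic bases with Gm7628 on the opposite strand in the annotation of GRCm38. The library kit does not mark strand, so their reads there cannot be told apart, but Gm7628 stood at only 1.57 to 4.43 CPM. Opposite-strand neighbours of Sema4c and Plxna4 held 8 and 2 counts in all.

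Nrp1, which binds class 3 semaphorins and VEGF, had 128, 27.5 and 68.6 CPM in male libraries and 165, 36.6 and 103 CPM in female libraries. Replicate 1 was highest and replicate 2 lowest in both sexes, and the log2 fold change was −0.45 (SE 0.72). Nrp2 averaged 2.90 ± 0.268 CPM in male and 3.57 ± 1.01 CPM in female libraries (SD, n = 3 each), and its log2 fold change was −0.30 (SE 0.38). Plxnb3, an X-linked receptor of Sema5a, held 17 counts over the male libraries and 2 over the female libraries. The ratio was 8.80 with an exact 95% interval of 2.09 to 78.5, which covers counting error only. Of its male counts, 11 came from replicate 1. Its male libraries all lay above its female libraries in CPM, but male replicate 2 held 1 count and female replicates 1 and 3 held 1 each.

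The spread within each sex went with the base composition of the transcripts. In 11 members replicate 1 was above replicate 2 in both sexes, and the longest transcripts of these had 39.2% to 51.6% GC. Among them were Sema3a, Sema3c, Sema3d, Sema5a, Sema6d and Nrp1. In 17 members, with 53.4% to 63.5% GC, replicate 1 was below replicate 2 in both sexes, Plxnb2, Sema3f, Sema6b and Sema7a among them. Over the 30 tested members, GC content and the log2 difference of replicate 1 and replicate 2 correlated at Pearson r = −0.897 in male and −0.926 in female libraries (Spearman's coefficient −0.830 in male and −0.842 in female libraries). Over 14674 tested genes r was −0.713 in male and −0.668 in female libraries. These are correlations across genes, which share the same 4 libraries and are not independent replicates.

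**Figure D2:**
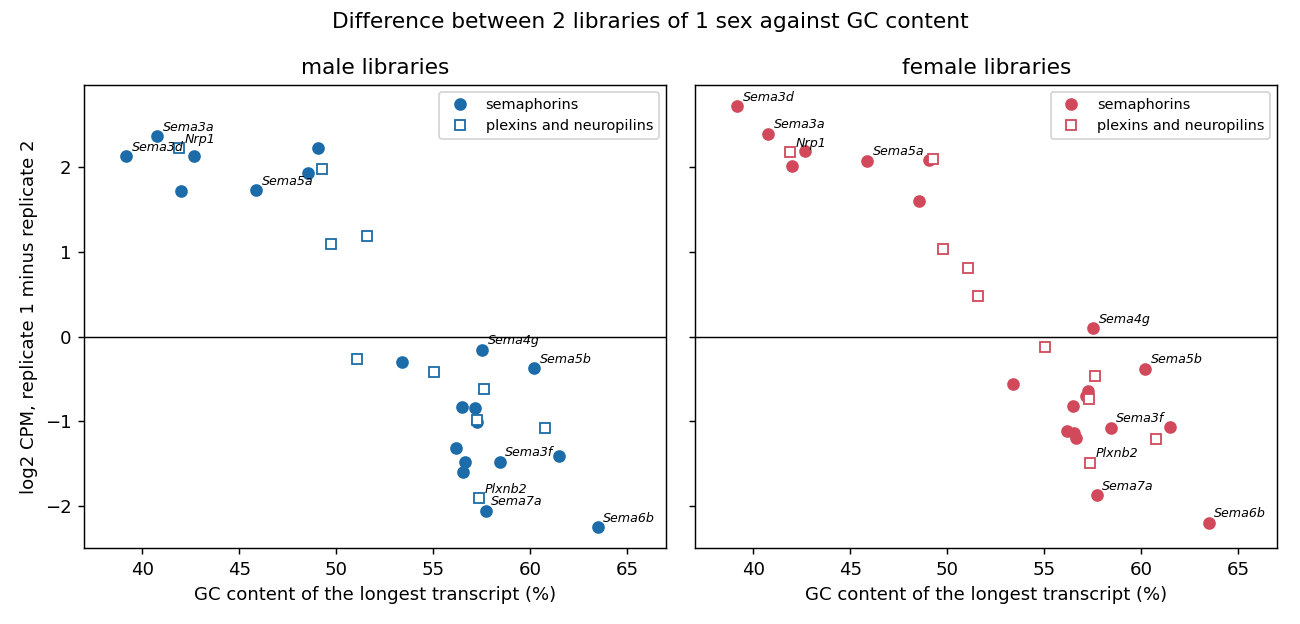
Log2 CPM of replicate 1 minus replicate 2 on the vertical axis against the GC content of the longest transcript on the horizontal axis, for male libraries on the left and female libraries on the right; filled circles are semaphorins and open squares plexins and neuropilins. Members up to 51.6% GC are above 0 and those from 53.4% GC below it in both sexes, with the exceptions of Nrp2 and Sema4g.

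With an offset that removed the trend of each library with GC content and transcript length, the median SD of log2 CPM among the tested members was 0.32 in male and 0.24 in female libraries, against 0.75 in male and 0.59 in female libraries before it. In this fit 2 members were higher and 2 lower in male past the threshold, where 3.02% of all tested genes were higher and 2.92% lower, 5.94% in all. All 4 are ligands, which make up 20 of the 30 tested members. Sema3g and Sema3d were higher, with log2 fold changes of 1.47 (SE 0.32, edgeR adjusted p = 0.0447) and 0.99 (SE 0.20, adjusted p = 0.0369). Sema5b and Sema3f were lower, with −1.46 (SE 0.26, edgeR adjusted p = 0.0219) and −1.08 (SE 0.18, adjusted p = 0.0156). After the offset Sema3f stood at 64.5, 81.0 and 73.8 CPM in male libraries and 151, 152 and 162 CPM in female libraries. Sema3d stood at 14.4, 16.96 and 14.6 CPM in male libraries and 8.82, 6.93 and 7.20 CPM in female libraries. In both genes the sexes no longer overlapped, and replicate 1 was no longer far from the others. The offset did not narrow every gene: Sema5b had an SD of 8.07 CPM in male and 21.5 CPM in female libraries after it, against 4.53 and 14.4 CPM before it. After the offset 9 of 30 members showed no overlap of the sexes, 4 with male above and 5 with male below, against 10.2% and 12.6% of all tested genes, 22.8% in all. The receptors among them were Plxna2, with male above, and Plxnb1, with male below. No receptor passed in this fit either, with log2 fold changes of −0.69 (SE 0.21, edgeR adjusted p = 0.134) for Plxnb1 and −0.23 (SE 0.44) for Plxnb2.

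**Figure D3:**
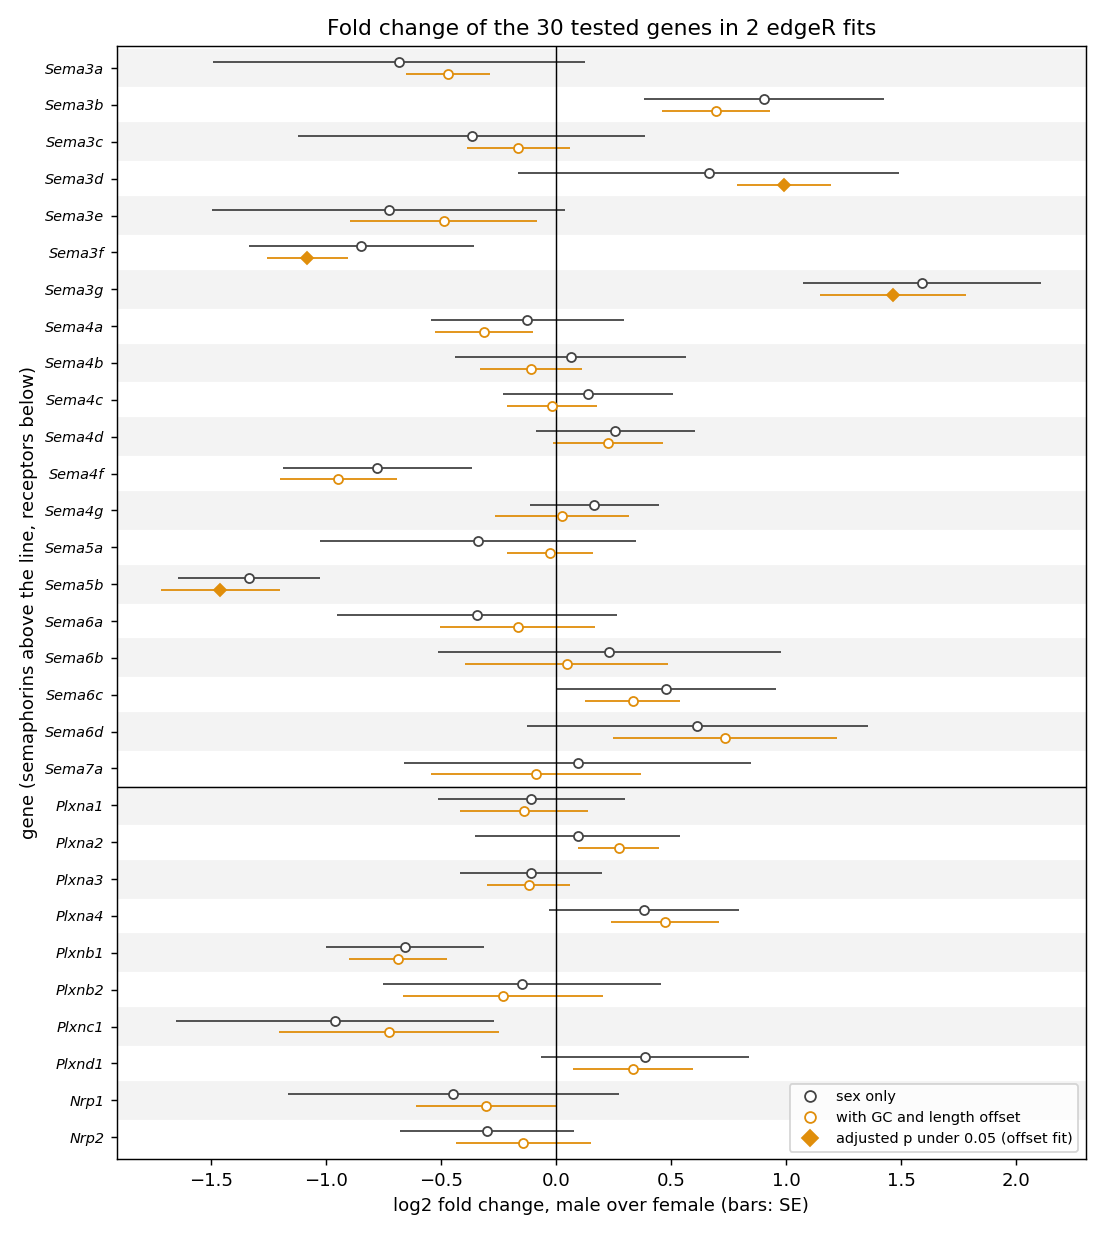
Log2 fold change of male over female with its SE for the 30 tested genes, semaphorins above the line and receptors below, from the fit with sex only (grey) and the fit with the GC content and length offset (orange). Filled diamonds mark adjusted p under 0.05, which in these fits are Sema3d and Sema3g on the right and Sema3f and Sema5b on the left, all with the offset.

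**Figure D4:**
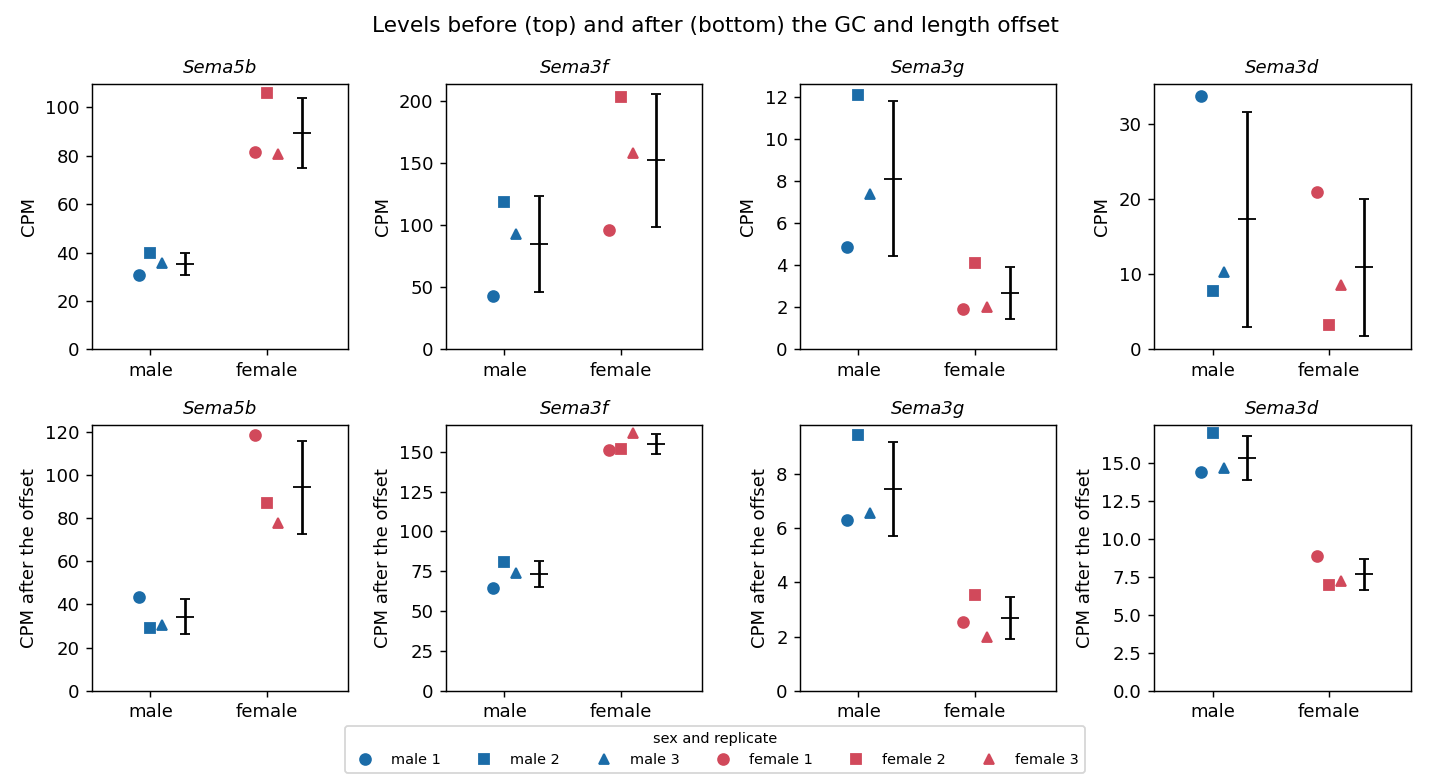
CPM of Sema5b, Sema3f, Sema3g and Sema3d in each library before (upper row) and after (lower row) the GC content and length offset, male left of female, with a marker shape per replicate and the mean and SD (n = 3) beside the points. For Sema3f and Sema3d the sexes overlap in the upper row and not in the lower row.

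Proteins that act with these receptors had no member past the threshold either. Of 23 tested genes for signalling inside the cell 0 were higher and 0 lower (edgeR), with 3 at an unadjusted p under 0.05 (9.18% of all tested genes), 1 called by DESeq2 (5.06% of all genes) and 0 by limma-voom (1.43% of all genes). The median log2 fold change of this list was 0.23, against −0.0060 over all tested genes. Mical2, which oxidises actin, had 215, 241 and 189.9 CPM in male libraries and 77.5, 60.1 and 79.3 CPM in female libraries. The sexes did not overlap, and the log2 fold change was 1.57 (SE 0.31, edgeR adjusted p = 0.0717). Fes, a tyrosine kinase that acts downstream of plexin A1, averaged 13.2 CPM in male and 4.98 CPM in female libraries, with 1.41 (SE 0.45, adjusted p = 0.296). With the offset Mical2, Fes and Rras, a GTPase that plexins switch off, were higher and Dpysl4, of the collapsin response mediator family, was lower past the threshold, 4 of 23 against 5.94% of all tested genes. Rras averaged 48.5 ± 22.7 CPM in male and 15.7 ± 8.34 CPM in female libraries, and Dpysl4 33.9 CPM in male and 62.2 CPM in female libraries (n = 3 each). Both were named after their values were seen.

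Of 14 tested co-receptors and other ligands of these receptors 0 were higher and 0 lower (edgeR), with 2 at an unadjusted p under 0.05, against 9.18% of all tested genes. DESeq2 called 2 of them, against 5.06% of all genes, and limma-voom 1, against 1.43%. The median log2 fold change was 0.12. Nrcam, an adhesion protein that forms a receptor complex with Nrp2 for Sema3f in the mouse, had 1.42, 0.544 and 0.421 CPM in male libraries and 25.6, 7.57 and 13.1 CPM in female libraries. All male libraries were far below all female libraries, but the difference just missed the threshold (log2 fold change −4.27, SE 0.72, edgeR adjusted p = 0.0522). It was −4.04 with the offset (adjusted p = 0.00132). Kdr, the VEGF receptor that Nrp1 assists, had 319, 133 and 171 CPM in male libraries and 86.1, 40.4 and 72.1 CPM in female libraries. No male library overlapped a female one, and the log2 fold change was 1.65 (SE 0.48, edgeR adjusted p = 0.241). With the offset it was 1.77 and passed (edgeR adjusted p = 0.0109).

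Part of the markers of other cell types were not at the same level in both sexes. The 8 neuron and Schwann cell markers summed to 67.7 to 76.6 CPM in male and 15.4 to 30.3 CPM in female libraries. Most of this was Stmn2, at 47.0, 61.5 and 68.1 CPM in male libraries and 9.59, 11.7 and 9.88 CPM in female libraries, which passed (log2 fold change 2.50, edgeR adjusted p = 0.0253, and 0.0561 with the offset). It was 1 of the 4 tested markers of this list, of which 2 had positive and 2 negative log2 fold changes, and 0.841% of all tested genes were higher. Elavl3 and Sox10, which define neurons and Schwann cells, had too few counts to be tested. The 7 Sertoli markers summed to 75.2 to 134 CPM in male and 22.2 to 57.8 CPM in female libraries. Of the 6 tested 3 (Amh, Sox9 and Cst9) were higher past the threshold (edgeR), where 0.841% of all tested genes were. Dhh, Aard and Gata4 did not pass, at log2 fold changes of 5.95, 1.07 and −0.034. The 6 pregranulosa markers summed to 275 to 552 CPM in male and 109 to 207 CPM in female libraries, but this sum was mostly Wnt4, and the median log2 fold change of the list was −0.98. Foxl2, Irx3 and Rspo1, 3 of the 6, lay lower in every male library than in any female one, as 7.27% of all tested genes did. Their means were 1.88, 0.268 and 7.56 CPM in male and 9.54, 3.63 and 16.3 CPM in female libraries. Wnt4 lay the other way without overlap, as 6.47% of all tested genes did, at means of 405 CPM in male and 104 CPM in female libraries. None of the 6 passed (edgeR). DESeq2 called 1 higher and 2 lower, against 5.06% of all genes. With the offset Foxl2 (edgeR adjusted p = 0.00440) and Irx3 (0.0145) were lower and Wnt4 (0.00717) higher past the threshold, against 5.94% of all tested genes. The 6 mesothelial markers summed to 510.0 to 547 CPM in male and 589 to 719 CPM in female libraries. The duct epithelium sums (149.96 to 498 CPM in male and 204 to 725 CPM in female libraries), the macrophage sums (6.95 to 10.3 CPM in male and 4.82 to 8.93 CPM in female libraries) and the erythroid sums (2.79 to 5.09 CPM in male and 2.90 to 24.5 CPM in female libraries) overlapped. Of the 7 tested duct epithelium markers 1, Epcam, was lower past the threshold, where 0.387% of all tested genes were. It stood at 2.58 ± 0.477 CPM in male and 13.7 ± 3.08 CPM in female libraries (SD, n = 3 each, log2 fold change −2.41, edgeR adjusted p = 0.0381, and 0.00684 with the offset). The other 6 did not pass. The list did not lie 1 way, with 2 positive log2 fold changes (0.19 for Cdh1 and 0.63 for Wnt7a) and 5 negative. The part of such cells in the levels of semaphorins, plexins and neuropilins was not tested.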

How the data were processed

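Counts per Ensembl gene were deposited for 3 male and 3 female libraries. The submitters' processing notes name TopHat, HTSeq, DESeq and mm9 but no versions; the gene annotation and whether counting used strand were not given in the sources used here. Libraries were TruSeq v2, sequenced as paired 76 base reads, per the labels' protocols. The deposited counts end in 5 summary lines that name no gene and were left out: counts outside genes were 3.53% to 18.2% and counts on several genes 6.51% to 10.0% of uniquely placed counts. Symbols (32919 of 37991 identifiers), chromosomes, transcript lengths and GC content came from GENCODE of GRCm38, promoters from RefSeq of GRCm38.p6.

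From these counts, genes were filtered by filterByExpr, scaled by TMM, and compared by sex with edgeR 4.0.16 in R 4.3.3 (robust quasi-likelihood, sex as the only term, two-sided, Benjamini-Hochberg over 15227 genes, threshold 0.05). A standard error is the size of the log2 fold change divided by the root of F. The GC content and length offset came from splines (5 degrees of freedom each) of the deviation of a library from the mean of each gene, and 96.4% of tested genes had a GC value; this correction was first added after the data were seen. DESeq2 1.42.0, limma-voom (limma 3.58.1), other scalings, filters and thresholds, a replicate block and leaving out libraries were alternatives. P-values set the difference between the sexes against the spread between these libraries, each a pool of 2 to 7 embryos, and not between single embryos.

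The members and lists were chosen with earlier results of these data known. Values in every library are given for members past the threshold in the fits with sex only, a replicate block or the offset, for the 6 largest fold changes with a mean of at least 1 CPM in 1 sex, and for the highest level of each subfamily. Of the 2 pathway lists, genes past the threshold or else the 2 with the smallest p were named; marker genes were named after their values were seen.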

Additional observations from a re-analysis of the deposited data

Results flagged for a closer look

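Counts outside annotated genes entered no test of semaphorins, plexins or neuropilins. The study has no control library for them, so these shares are given as values with no comparison. Their share of uniquely placed counts was 18.2%, 5.45% and 5.50% in male replicates 1 to 3 and 17.5%, 3.53% and 8.65% in female replicates 1 to 3. No other value was singled out by the rules used, which do not test groups of 3 libraries for outliers.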

How the results depend on the processing

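No member was past the threshold with other scalings, other filters, limma-voom, a fit without robust, an adjusted p under 0.1 or under 0.01, or any library or pair of same-numbered libraries left out (the counts of higher and of lower members were 0 to 0 in each). DESeq2 called 1 member lower. The GC content and length offset called 2 higher and 2 lower. A replicate block called 4 higher and 7 lower, and a replicate block with that offset 6 higher and 7 lower, where 27.3% and 29% of all tested genes were past it. Replicate numbers did not pair the samples by the rule used: deviations of same-numbered libraries from the means of their sex correlated over genes at 0.927, 0.852 and −0.069 for replicates 1 to 3, and male replicate 3 correlated best with female replicate 2 (0.590). The block is therefore given here alone. By member, 13 of 30 were past the threshold in at least 1 alternative. All of these passed with the replicate block and the offset together, as 29% of all tested genes did. Outside the fits with a block only Sema3d, Sema3f, Sema3g and Sema5b passed. The share of all tested genes past the threshold in at least 1 alternative was not computed. In every alternative 12 members kept the sign of the log2 fold change, and no turned sign was past the threshold. Sema5b lay between −1.46 and −1.19 and was past the threshold in 4 of 21 alternatives, and Sema3g between 1.18 and 2.05 and in 3 of 21. The sign turned with the offset for Sema4b (−0.11, and −0.12 with the block as well), Sema4c (−0.019 and −0.025) and Sema7a (−0.086 and −0.0032). With 1 library or 1 replicate number left out, the sign turned in these ranges of the log2 fold change: Nrp1 −1.08 to 0.091, Plxna1 −0.49 to 0.10, Plxna2 −0.33 to 0.38, Plxna3 −0.30 to 0.030, Plxna4 −0.058 to 0.59, Plxnb2 −0.69 to 0.21, Sema3a −1.69 to 0.10, Sema3c −1.30 to 0.35, Sema3d −0.27 to 1.55, Sema3e −1.68 to 0.0023, Sema4a −0.43 to 0.15, Sema4b −0.26 to 0.44, Sema4c −0.12 to 0.36, Sema5a −1.09 to 0.23, Sema6a −0.90 to 0.12, Sema6b −0.39 to 0.64, Sema6d −0.30 to 1.27 and Sema7a −0.37 to 1.09. The causes were not tested. With the median transcript length, which short annotated transcripts lower, the ligand sums were 520.4 CPM per kb in male and 679.6 in female libraries and the receptor sums 1572 and 1782. The omission of a whole replicate number was an alternative chosen after seeing the data.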
